A study of Mus musculus with 24 samples.

Results

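The comparison described here follows mouse liver from birth to weaning in 1 genotype on 1 diet: Cyp1b1-null pups of dams fed a vitamin A deficient diet. It rests on 4 of the 24 arrays of the series, chosen by their labels, namely 2 arrays at postnatal day 21 (PN21) and 2 at postnatal day 0 (PN0). Cyp1b1 is a cytochrome P450 that oxidises steroids, polycyclic hydrocarbons and retinoids. The series measured liver RNA on 1-colour Agilent arrays in wild-type C57Bl/6J mice, Cyp1b1-null mice and R-Cyp1b1-null mice, a Cyp1b1-null substrain resistant to obesity from diet, on a vitamin A sufficient or a vitamin A deficient diet. The defined diets replaced the standard breeder diet of the pregnant dams on embryonic day 4.5 and were kept until the tissue was taken. Each PN21 array held RNA pooled from 2 male pups. Each PN0 array held liver pooled over a litter, with no sex given. The other groups used for comparison were the Cyp1b1-null arrays on the sufficient diet (2 at PN21, 2 at PN0) and the wild-type arrays on the deficient diet (3 at PN21, of which 1 held a single mouse, and 2 at PN0). The strain background of the Cyp1b1-null line, the design of the deletion and the number of litters behind the PN21 pools are not given in the sources used here. The spread behind each p-value is that of arrays within a group, pooled over all groups of the series, and may be technical in part.

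The liver changes its work after birth. Before birth it is the main site of blood formation, and its hepatocytes divide and secrete fetal proteins such as alpha-fetoprotein. After birth blood formation moves to bone marrow and spleen, hepatocytes leave the cell cycle, and the enzymes of detoxification, bile acid synthesis and amino acid breakdown are switched on as the pup goes from milk to solid food. The liver also takes up retinol, stores it as retinyl ester in stellate cells, and releases it bound to retinol binding protein.

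Levels are given as log2 of the processed signal relative to the 75th percentile of the same array, so 0 is the signal of that percentile and a step of 1 is a doubling. The 75th percentile signal was 271 and 335.8 at PN21 and 479.2 and 420.8 at PN0, and between 64.7% and 65.9% of the probes gave a signal well above background. Levels correlated between the 2 PN21 arrays (r = 0.991 over measured probes) and the 2 PN0 arrays (r = 0.98) more closely than across ages (r = 0.922 to 0.935). Liver markers were high on every array: albumin (Alb) stood at 10.38 and 9.97 at PN21 and at 9.54 and 9.57 at PN0, and the liver transcription factor Hnf4a at 2.86 and 3.07 against 2.52 and 2.10. Of 2 Cyp1b1 probes the brighter was used. It read -0.87 and 0.81 at PN21 and 0.13 and 0.26 at PN0, with no call of a difference (-0.22 ± 0.75, SE, limma adjusted p = 0.951). Its readings in the wild type on the same diet were lower, -4.03 to -1.29 at PN21, with 2 of 3 arrays above background, and -3.72 and -2.99 at PN0, with neither array above background. The probe used lies at chr17:80106547-80106606 of mm9. The other, at chr17:80100918-80100977, read -4.31 and -4.08 at PN21 and -4.43 and -4.77 at PN0, above background on all 4 arrays. Which part of the gene the deletion removes is not given, so neither reading is a check of the genotype labels.

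RNA of sex-linked genes moved with age in these 4 arrays. The Y-linked genes Ddx3y (2.05 and 2.03), Eif2s3y (1.71 and 1.39) and Kdm5d (-1.84 and -1.99) were well above background on both PN21 arrays and on neither PN0 array. Xist, the RNA that silences one X chromosome in females, read 3.69 and 3.42 at PN0 and was not well above background at PN21. The differences were at least 210-fold for Ddx3y, at least 150-fold for Eif2s3y, at least 13.5-fold for Kdm5d and at least 509-fold for Xist in the other direction. The bound sets the group with the gene above background against the lowest signal that counted as above background on the other arrays. Age and sex cannot be told apart here. Age and slide cannot be told apart either, since both PN21 arrays of this line share 1 slide and both PN0 arrays another.

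Skeletal muscle genes differed between the 2 PN0 arrays. Fetal myosin Myh8 read -5.06 and 3.85, skeletal actin Acta1 -4.27 and 3.12, and muscle creatine kinase Ckm -6.90 and -0.17 on PN0 arrays 1 and 2, against -6.16 to -5.66, -4.81 to -4.30 and -7.54 to -6.28 at PN21. PN0 array 2 was the one that stood apart, on all 3. The median difference of the 33 measured muscle genes was -1.68, and it was -3.53 without PN0 array 1 and -0.01 without PN0 array 2. None of these muscle structural genes was called. The only muscle-list member called was Car3, a carbonic anhydrase that liver also makes, at 7 and 7.08 against 1.15 and 2.11 (5.41 ± 1.05, adjusted p = 0.00551). Exocrine pancreas genes showed no call (0 of 24 measured, median -0.33). Of the 24, 17 were above background on both PN21 arrays and 19 on both PN0 arrays. The elastase Cela1 was above background on all 4 arrays (-3.16 and -2.52 at PN21, -1.07 and -1.39 at PN0). The carboxypeptidase Cpa1 was so on 3 of the 4 arrays and the trypsinogen Prss2 on none. The part of muscle RNA in the results below was not tested beyond leaving out each array.

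Of 20532 genes tested with limma at an adjusted p under 0.05, 978 (4.76%) differed between PN21 and PN0. Of these, 363 (1.77%) were higher at PN21 and 615 (3.00%) lower. Each count of calls in a list below is to be read against these shares. A further part of the table moved without passing the adjustment, since 3286 genes had an unadjusted p under 0.05. The median difference over all genes tested was 0.24, and it was 0.09 after quantile normalization, so small positive differences are to be read against that shift. A difference above 0 was found for 62.1% of all genes and one below 0 for 37.9%. With 2 arrays a group, both arrays of one age lay outside those of the other for 72.7% of all genes, 46.9% with PN21 higher and 25.8% with PN21 lower. The smallest difference called was 1.31, and 97 calls upward and 176 downward were 16-fold or more. Of the 978, 719 were above background on all 4 arrays, 83 on the PN21 arrays only and 106 on the PN0 arrays only. The test borrows its spread from all groups of the series, of which 2 arrays correlate poorly with the rest of their age. Without those 2 arrays 4768 genes were called, the 978 among them, with 2762 higher and 2006 lower. The 4 arrays alone gave 6072, with 3768 higher and 2304 lower, so which direction held more calls depended on the fit. Leaving out a single array lowered the count to 298 (PN21 array 1), 409 (PN21 array 2), 402 (PN0 array 1) and 419 (PN0 array 2).

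**Figure D1:**
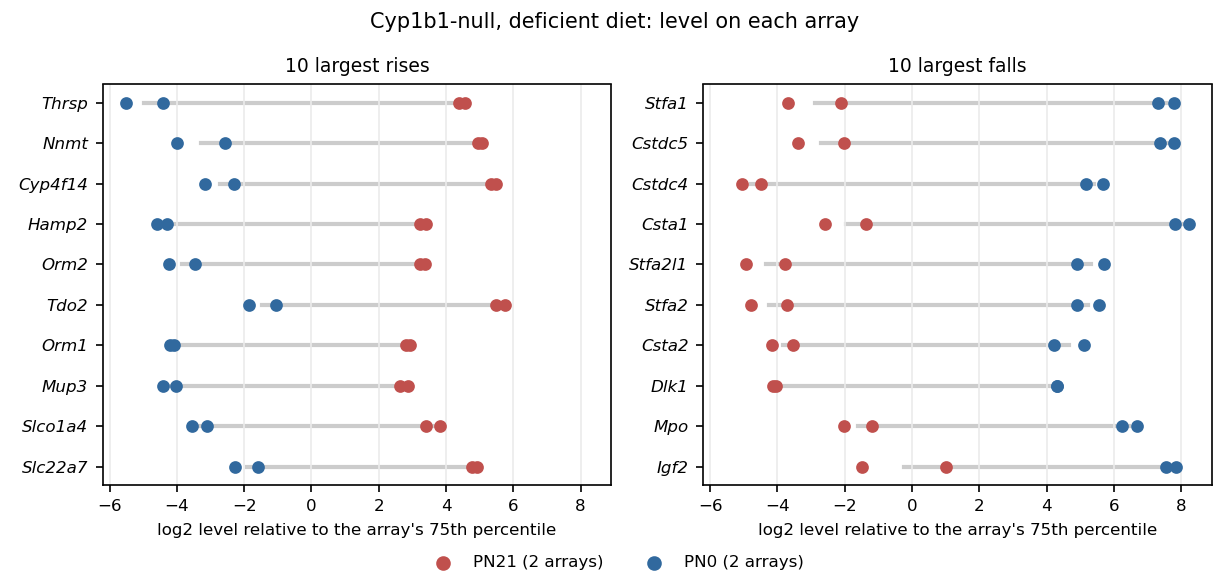
Level on each array for the 10 largest rises and the 10 largest falls among called genes with a current gene symbol, above background on all 4 arrays. Levels are in log2 relative to the array's 75th percentile. Red points are the 2 PN21 arrays, blue points the 2 PN0 arrays, and the grey line joins the group means. The groups do not overlap for any of the 20 genes, as for 72.7% of all genes tested, and the largest fall is -10.44 for Stfa1.

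Genes of granulocytes and their precursors made up most of the largest falls. Of the 24 measured, 22 were lower at PN21 (91.7%, against 3.00% of all genes) and none was higher. The median difference was -5.95 (-5.64 with genes not above background at PN21 set at their bound). The summed signal of the list, in units of the 75th percentile, was 982 and 837 at PN21 and 1730 and 1490 at PN0. Haptoglobin (Hp), which hepatocytes also make in bulk, belongs to this list and was not called. In bulk tissue fewer cells of a type and less RNA per cell cannot be told apart, here and for every list below. With a single array left out, 18 to 21 members were called.

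Myeloperoxidase (Mpo), an enzyme of neutrophil granules, read -2.03 and -1.18 at PN21 and 6.70 and 6.23 at PN0. It fell by 8.07 ± 0.59 (adjusted p = 9.17e-07), or 269-fold. S100a8, a calcium-binding protein of neutrophils, read -0.73 and 0.30 against 7.21 and 6.76, a difference of -7.20 ± 0.65 (adjusted p = 5.96e-06). Both PN0 arrays lay above both PN21 arrays in each gene, as in 25.8% of all genes tested. The granule proteins Camp (-7.84) and Ngp (-7.80) fell alike, and neutrophil elastase (Elane) was above background at PN0 only, at least 44.8-fold lower at PN21. Lcn2, a siderophore-binding protein counted here and among the acute phase genes, fell by 4.05.

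The 7 largest falls of genes above background on all 4 arrays were stefin A genes. Stefins are inhibitors of cysteine proteases, and the stefin A genes form a cluster of close copies on chromosome 16. Stfa1 read -3.67 and -2.11 at PN21 and 7.79 and 7.31 at PN0, a difference of -10.44 ± 0.90 (adjusted p = 3.71e-06). Cstdc5 (-10.30), Cstdc4 (-10.19), Csta1 (-9.99), Stfa2l1 (-9.66), Stfa2 (-9.48) and Csta2 (-8.51) followed. They are not 7 independent observations, because the probes of several members share sequence, shown here since the values rest on them. The first 3 lines give the stretch around the stop codon of the probes for Stfa1, Cstdc5 and Csta1, with the 19 bases common to all 3 in capitals.

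Stfa1: ccatggatgaaGAGCTGACCTACTTCTAAG
Cstdc5: ccaaggatgatGAGCTGACCTACTTCTAAG
Csta1: gatgatGAGCTGACCTACTTCTAAG
Stfa2: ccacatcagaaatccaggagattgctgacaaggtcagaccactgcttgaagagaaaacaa
Stfa2l1: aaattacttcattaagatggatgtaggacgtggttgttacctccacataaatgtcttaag

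These probes lie, on mm9, at chr16:36285323-36285382 (Stfa1, plus strand), chr16:36359525-36359584 (Cstdc5, minus) and chr16:36122294-36122353 (Csta1, minus). The Stfa2 and Stfa2l1 probes, given whole, span chr16:36405290-36408367 (minus) and chr16:36160118-36161876 (plus), which the annotation spreads over more than 60 bases. The longest run shared by the whole 60-base probes was 45 bases for Csta1 and Cstdc5 and 25 for Csta1 and Csta2. The Stfa2 and Stfa2l1 probes shared at most 7 bases with any other of the family. The array's own annotation lists 2 RefSeq transcripts for the Stfa1, Csta1 and Stfa2l1 probes. A second Csta1 probe, not above background on any of the 4 arrays, differed by -0.10. Which copies carry the signal is therefore uncertain, while the fall itself was seen with the distinct probes of Stfa2 and Stfa2l1 as well.

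Of 55 measured erythroid genes, 33 were lower at PN21 (60.0%, against 3.00% of all genes) and none was higher, with a median difference of -3.30, and 21 to 25 were called with 1 array left out. The summed signal was 1190 and 1180 at PN21 against 2530 and 2330 at PN0. The adult alpha globin Hba-a1 read 8.59 and 8.63 against 9.77 and 9.52 (-1.04, not called). Alas2, the first enzyme of haem synthesis in red cells, read 3.82 and 3.75 against 5.96 and 5.27 (-1.83, not called). The erythroid regulator Klf1, a defining marker, fell by 3.30.

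Rhd, the Rh blood group protein, read -7.40 and -3.89 at PN21 and 4 and 4.67 at PN0, a difference of -9.98 ± 1.02 (adjusted p = 2.4e-05). Hemgn, a nuclear protein of blood precursors, read -7.19 and -4.90 against 3.33 and 3.92 (-9.67 ± 0.83). Both genes were above background on only 1 of the 2 PN21 arrays, and PN21 array 1 was the lower in each. Ahsp, the chaperone of alpha globin, fell by 7.94. Ermap and Rhag, membrane proteins of red cells, were not above background at PN21 and were at least 236-fold and at least 66.5-fold lower. The erythroid RNA Redrum was at least 130-fold lower.

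The promoter of Rhd is shown as an example of an erythroid gene that fell, since blood precursors are known to use GATA factors. The capitals mark AGATAA, whose first base lies at position -43 from the transcription start. The sequence is the 250 bases before the start, RefSeq, GRCm38.p6, chr4:134864286-134864535, plus strand.

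Rhd: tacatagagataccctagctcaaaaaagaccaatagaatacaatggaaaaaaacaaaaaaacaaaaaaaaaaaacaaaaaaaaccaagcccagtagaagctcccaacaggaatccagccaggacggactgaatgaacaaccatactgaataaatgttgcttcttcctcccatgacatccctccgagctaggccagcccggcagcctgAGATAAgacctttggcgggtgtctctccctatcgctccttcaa

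AGATAA, on either strand of the window from 250 bases before to 50 after the start, occurred in 11 of the 38 measured erythroid genes that had a promoter entry (28.9%). It occurred in 12.7% of all 27025 promoters searched and in 9.35% of the 13304 tested genes with an entry. The share was 33.3% in mature hepatocyte genes (6 of 18), 17.2% in genes called higher and 13.9% in genes called lower. A match is a description of the sequence, with no binding measured here.

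Megakaryocyte and platelet genes fell too, 13 of 21 measured (61.9%, against 3.00% of all genes) with none higher. The median was -3.80, or -3.05 at the bounds, and fewer were called with any 1 array left out. Platelet factor 4 (Pf4) read 1.54 and 1.61 at PN21 and 6.76 and 5.56 at PN0, a difference of -4.59 ± 0.60 (adjusted p = 0.000221). The integrin Itga2b read -2.77 and -3.10 against 1.32 and 0.94 (-4.06 ± 0.84). Gp9, a subunit of the platelet receptor for von Willebrand factor, fell by 5.63 (adjusted p = 1.44e-06), at -2.44 and -2.34 against 3.55 and 2.94. Of 16 genes of stem and progenitor cells 3 were lower (18.8%, against 3.00% of all genes). They were the growth factor receptor Kit (-1.64), the surface protein Cd34 (-1.96) and the transcription factor Myb (-6.36). Other Myb probes differed by -6.53, -3.76 and -2.20, the last above background on all 4 arrays. Myb read -4.85 and -4.38 against 1.78 and 1.72 and kept its call in all 15 alternative settings. Kit lost it in several of them.

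Lymphocyte genes were mixed. Of 33 measured, 11 were lower (33.3%, against 3.00% of all genes) and 1 higher (3.03%, against 1.77%). The 5 largest falls were in genes of early lymphocytes. Genes of mature B cells and of cytotoxic cells were among the other 6. Rag1, which cuts antigen receptor genes, was above background at PN0 only and at least 9.81-fold lower at PN21. The surrogate light chain genes Vpreb1 (-3.82) and Vpreb3 (-4.62) and the transcription factor Ebf1 (at least 6.13-fold) fell, and Il7r, the interleukin-7 receptor, was at least 11.9-fold lower, though another of its probes, above background on all 4 arrays, differed by -0.46. The gene that rose was the T-cell coreceptor Cd8b1, at -2.06 and -2.45 against -5.54 and -4.64 (2.83 ± 0.73, adjusted p = 0.0349). That call was lost, with a difference of 0.60, after normexp background correction and quantile normalization. The T-cell gene Cd3e read 0.07 and 0.19 against -2.00 and -1.65 and was not called. With 1 array left out, 4 to 6 members were lower and none was higher.

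The lists of resident liver cells had shares of calls near those of all genes (1.77% higher, 3.00% lower). Of 25 Kupffer cell genes 1 was lower, the transcription factor Spic (-1.47 ± 0.38, adjusted p = 0.0343), and no call was left with any array left out. The Kupffer markers Clec4f (4.58 and 4.55 against 3.01 and 4.25), Timd4 and Cd5l were not called. No call was made among 25 endothelial genes (median 0.09) or 18 bile duct genes (median 0.00). Of 24 stellate cell and fibroblast genes 1 rose, the G-protein regulator Rgs5, at -0.01 and 0.54 against -5.27 and -3.66 (4.73 ± 0.76, adjusted p = 0.00115).

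**Figure D2:**
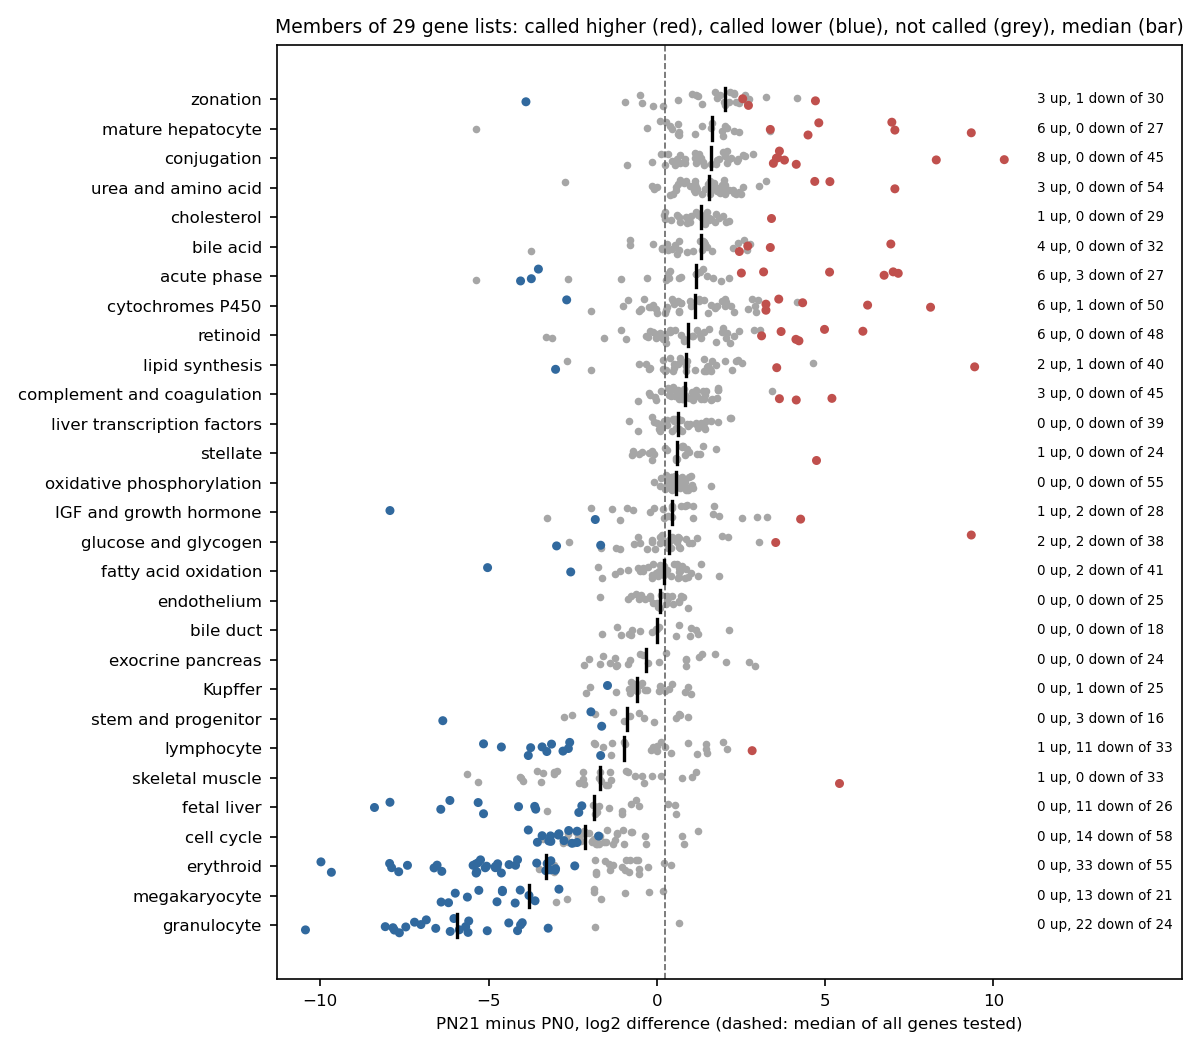
PN21 minus PN0 difference, in log2, of each measured member of 29 gene lists, ordered by the list's median (black bar), with the median of all genes tested (0.24) as a dashed line. Red and blue points are members called higher and lower, grey points are not called. The granulocyte list lies farthest to the left with a median of -5.95 and the zonation list farthest to the right with 2.01.

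Fetal liver genes fell. Of 26 measured, 11 were lower (42.3%, against 3.00% of all genes) and none was higher (median -1.86). Fewer were called with any 1 array left out. Alpha-fetoprotein (Afp), the main serum protein of the fetus, read 2.67 and 3.72 at PN21 and 9.30 and 9.39 at PN0, a difference of -6.15 ± 0.87 (adjusted p = 0.000431), or 71.0-fold. Dlk1, a surface protein of hepatoblasts, read -4.12 and -4.05 against 4.31 and 4.31 (-8.39 ± 0.78, adjusted p = 7.98e-06). In both genes the ages did not overlap, as for 25.8% of all genes with PN21 lower. The RNA-binding protein Igf2bp1 and the surface protein Igdcc4 were above background at PN0 only, at least 8.66-fold and at least 35.5-fold lower at PN21. H19, an imprinted non-coding RNA next to Igf2, read 3.70 and 5.98 against 8.07 and 8.13 and was not called (-3.26 ± 1.35, adjusted p = 0.23).

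Afp and albumin lie side by side on chromosome 5. Their promoters are shown because one gene fell and the other did not. The capitals mark GTTAAT, one side of the site of the hepatocyte factor HNF1. Each line gives the 250 bases before the start, RefSeq, GRCm38.p6, plus strand, at chr5:90490464-90490713 for Afp and chr5:90460620-90460869 for Alb.

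Afp: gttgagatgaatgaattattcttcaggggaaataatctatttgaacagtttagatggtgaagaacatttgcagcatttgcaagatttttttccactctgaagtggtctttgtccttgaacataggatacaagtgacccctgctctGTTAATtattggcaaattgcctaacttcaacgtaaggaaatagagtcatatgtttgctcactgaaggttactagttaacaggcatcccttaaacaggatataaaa
Alb: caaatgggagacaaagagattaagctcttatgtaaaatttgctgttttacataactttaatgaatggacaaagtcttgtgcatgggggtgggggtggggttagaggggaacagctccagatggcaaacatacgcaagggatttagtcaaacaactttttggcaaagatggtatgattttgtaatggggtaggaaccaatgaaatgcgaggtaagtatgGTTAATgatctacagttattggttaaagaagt

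The letters begin at position -105 from the start of Afp and at -32 from that of Alb, so both promoters hold them while Afp fell and Alb was not called (0.62 ± 0.95, adjusted p = 0.862). GTTAAT, on either strand, occurred in 8.24% of all promoters searched. It occurred in 4 of 18 mature hepatocyte genes (22.2%) and in 12 of 36 complement and coagulation genes (33.3%).

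The 2 insulin-like growth factors changed in opposite directions. Igf2, the growth factor of the fetus, read -1.48 and 1.00 at PN21 and 7.54 and 7.84 at PN0 and fell by 7.93 ± 0.59 (adjusted p = 9.17e-07). Igf1, the growth factor that liver makes under growth hormone, read 7.12 and 7.03 against 2.37 and 3.24 and rose by 4.27 ± 0.94 (adjusted p = 0.0135), or 19.3-fold. PN21 array 2 was the higher of the 2 in Igf2, and both lay far below the PN0 arrays. The call of Igf2 was kept in all 15 alternatives, and that of Igf1 was lost with any 1 of the 4 arrays left out (difference 3.83 to 4.71).

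Of the other 26 measured genes of the system, the receptor Igf1r was lower, at -1.36 and -1.65 against 0.13 and 0.53 (-1.83 ± 0.36, adjusted p = 0.00613). The growth hormone receptor Ghr read 5.72 and 5.75 against 2.71 and 2.82 and missed the threshold (2.97 ± 0.88, adjusted p = 0.07). The prolactin receptor Prlr (3.26, adjusted p = 0.0625) missed it as well. Igfals, which carries Igf1 in blood, read 1.69 and 2.27 against -0.48 and -0.60, and the binding proteins Igfbp1 (7.29 and 7.38 against 9.13 and 9.44) and Igfbp2 (7.37 and 7.12 against 8.02 and 8.70) leaned the other way, none of them called. Over the list 1 gene was higher (3.57%, against 1.77% of all genes) and 2 were lower (7.14%, against 3.00%). The median was 0.45.

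**Figure D3:**
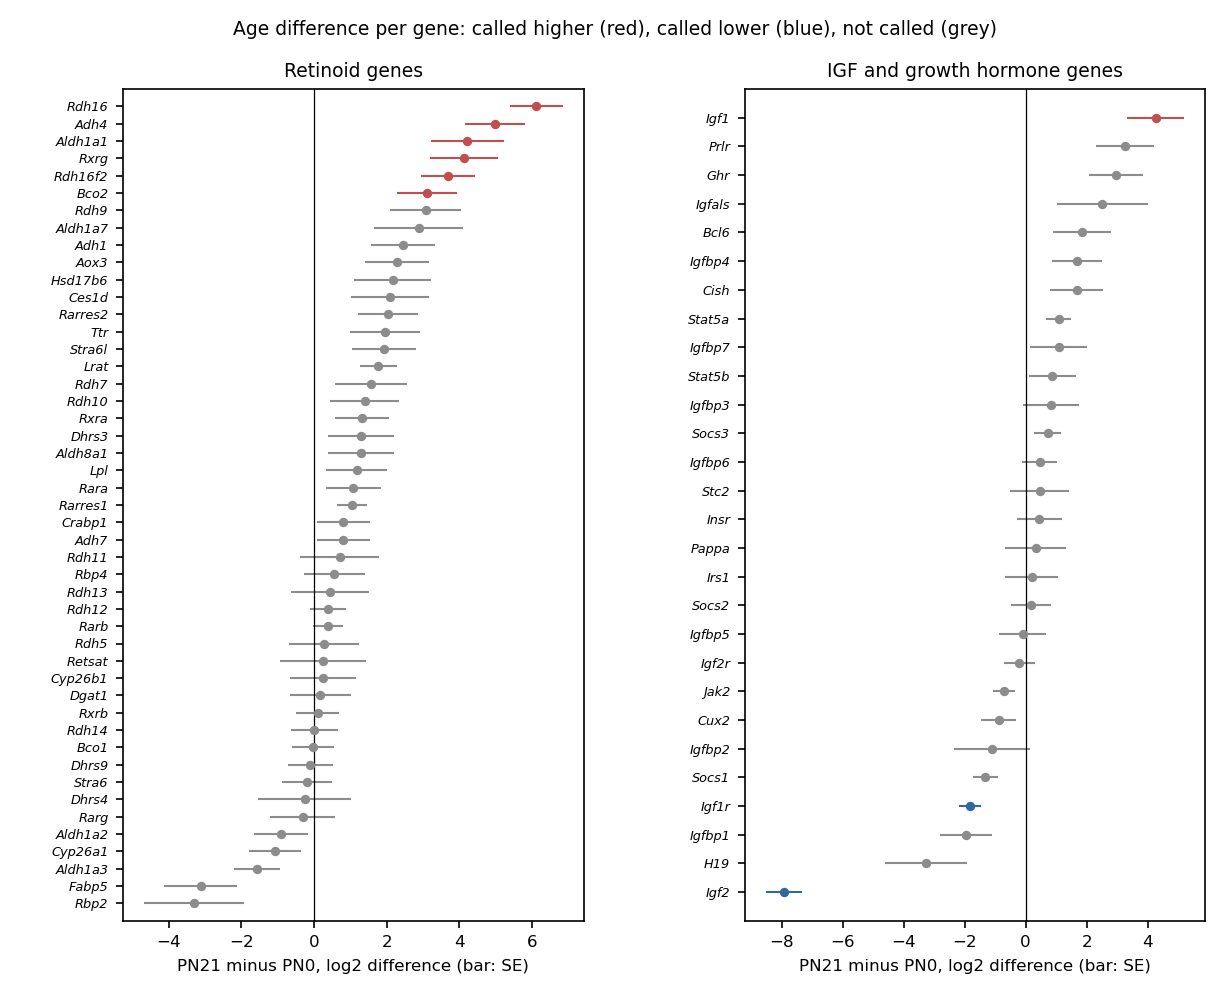
PN21 minus PN0 difference in log2, with its standard error, for all but 1 of the 48 measured retinoid genes (left) and the 28 measured genes of the IGF and growth hormone system (right). Red and blue mark genes called higher and lower. The 6 retinoid calls are all higher at PN21, with Rdh16 at 6.12, and on the right Igf1 at 4.27 and Igf2 at -7.93 mark the 2 ends.

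Of 58 measured cell cycle genes 14 were called lower (24.1%, against 3.00% of all genes) and none higher (median -2.14). In all, 55 of the 58 had a difference below 0, against 37.9% of all genes. In the fit of the 4 arrays alone 49 were called lower and 1 higher. That fit called 2304 of all 20532 genes lower and 3768 higher. Fewer than 14 were called with any 1 array left out from the full fit. The proliferation marker Mki67 read 1.35 and 1.87 at PN21 against 4.71 and 5.28 at PN0 and missed the threshold (-3.38 ± 1.02, adjusted p = 0.074), as did cyclin B1 (Ccnb1, -2.33). Topoisomerase Top2a, which untangles replicated DNA, read -1.01 and -0.60 against 1.26 and 1.87 and fell by 2.37 ± 0.46 (adjusted p = 0.00535). Mybl2, a transcription factor of dividing cells, read -2.87 and -2.49 against 0.98 and 1.30 and fell by 3.82 ± 0.56 (adjusted p = 0.000608). Mybl2 was the member with the largest fall and was called in all 15 alternatives. The replication licensing factor Cdc6 (-3.55), the protease separase (Espl1, -3.41), the spindle protein Nusap1 (-3.21) and the ubiquitin-conjugating enzyme Ube2c (-3.16) fell. A second probe of Espl1, not above background on any of the 4 arrays, differed by 0.02, while other probes above background differed by -2.77 for Top2a and -1.33 for Nusap1. Both blood precursors and hepatocytes divide at birth, and the arrays do not separate them.

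The promoter of Ube2c is shown because cell cycle promoters are known for CCAAT boxes and for the element called CHR. The capitals mark CCAAT and TTTGAA on either strand, and 1 pair of CCAAT matches on opposite strands overlaps. The sequence is the 250 bases before the start, RefSeq, GRCm38.p6, chr2:164769679-164769928, plus strand.

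Ube2c: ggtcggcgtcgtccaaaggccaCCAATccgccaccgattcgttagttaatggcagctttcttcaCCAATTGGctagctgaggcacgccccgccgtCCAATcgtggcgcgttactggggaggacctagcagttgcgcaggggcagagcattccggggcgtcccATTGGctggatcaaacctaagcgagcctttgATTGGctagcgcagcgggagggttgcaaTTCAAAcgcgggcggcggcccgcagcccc

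CCAAT occurred in 32 of the 44 measured cell cycle genes with a promoter entry (72.7%) and in 41.1% of all promoters searched. TTTGAA occurred in 17 of the 44 (38.6%) and in 20.2% of all. In genes called lower at PN21 the shares were 41.8% and 21.5%, and in genes called higher 47.5% and 20.2%.

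Thrsp, a regulator of lipid synthesis, had the largest rise of genes above background on all 4 arrays, at 4.38 and 4.56 at PN21 against -5.52 and -4.42 at PN0 (9.44 ± 1.43, adjusted p = 0.000779). Nnmt, which methylates nicotinamide, read 4.95 and 5.07 against -3.99 and -2.58 (8.30 ± 0.76, adjusted p = 7.24e-06). Tdo2, which opens the ring of tryptophan, read 5.76 and 5.48 against -1.05 and -1.86 (7.07 ± 1.17). For these 3 genes the PN21 arrays lay closer together than the PN0 arrays. The organic anion transporters Slco1a4 (6.95) and Slc22a7 (6.76) rose. Among genes above background at PN21 only, the sulfotransferase Sult2a5 was at least 424-fold higher, the lipid transporter Mfsd2a at least 77.7-fold and the urinary protein Mup5 at least 35.1-fold.

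Of 27 measured genes of the mature hepatocyte outside the P450 family, 6 rose (22.2%, against 1.77% of all genes) and none fell. In all, 25 had a difference above 0, as had 62.1% of all genes (median 1.64). With 1 array left out, 3 or 4 were called. Mup3 (6.98), a major urinary protein, the methyltransferase Inmt (4.81) and apolipoprotein C3 (Apoc3, 4.49) rose, and another probe of Mup3 differed by 5.77. Transthyretin (Ttr), the gluconeogenic enzyme G6pc and tyrosine aminotransferase (Tat) were not called (1.95, 0.39 and 1.12).

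Cytochromes P450 oxidise drugs, steroids and fatty acids. Of 50 measured, 6 rose (12.0%, against 1.77% of all genes) and 1 fell (2.00%, against 3.00%). The median was 1.12, against 0.24 for all genes, and fewer were called with any 1 array left out. Cyp4f14, an omega-hydroxylase, read 5.33 and 5.49 at PN21 and -3.16 and -2.29 at PN0 (8.13 ± 1.00, adjusted p = 0.000122). Cyp2c55 read 1.05 and 1.29 against -4.94 and -5.24 (6.26 ± 0.96), and Cyp2c54 1.42 and 0.28 against -3.93 and -3.03 (4.33 ± 0.68). The groups were far apart in all 3, while Cyp2c55 was above background on 1 PN0 array only. Cyp2c70, Cyp2a5 and Cyp2c39 rose by 3.62, 3.24 and 3.24, and belong to subfamilies of close copies, which the probes may not separate. Cyp4a12a, male-biased in adult liver, fell, at -3.42 and -3.72 against -0.61 and -1.17 (-2.68 ± 0.66, adjusted p = 0.0275), though the PN21 pools were male. The pericentral enzymes Cyp1a2 (3.29 and 3.65 against -0.53 and -0.84, 4.15 ± 1.28, adjusted p = 0.0805) and Cyp2e1 (2.01) and the main steroid hydroxylase Cyp3a11 (0.73) were not called.

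Of 45 genes of conjugation and detoxification, 8 rose (17.8%, against 1.77% of all genes) and none fell. In all, 43 had a difference above 0, against 62.1% of all genes, and the median was 1.62 against 0.24. Fewer were called with any 1 array left out. Nnmt, described above, is one of the 8. The glucuronosyltransferases Ugt3a2 (3.79) and Ugt2a3 (3.64) rose, and Ugt2b1, Gstp1 and Sult1a1 were not called. Of 32 bile acid genes 4 rose (12.5%, against 1.77% of all genes). They were the transporter Slco1a4, the conjugating enzyme Baat (3.37), the hydroxylase Cyp7b1 (2.70) and the sterol exporter Abcg8 (2.45). Slco1a4 kept its call with any 1 array left out, and the others did not. Cyp7a1, the rate-limiting enzyme of bile acid synthesis, read 2.24 and 2.80 against -0.06 and -0.41 and was not called (2.76 ± 0.89, adjusted p = 0.101).

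Secreted defence proteins rose in part. Of 27 acute phase genes 6 rose (22.2%, against 1.77% of all genes) and 3 fell (11.1%, against 3.00%). The median was 1.17, and fewer were called with any 1 array left out. The orosomucoids Orm1 (2.80 and 2.94 against -4.09 and -4.20, 7.02 ± 1.07) and Orm2 (3.24 and 3.39 against -3.47 and -4.24, 7.17 ± 1.26) rose together, and Orm3 was at least 13.3-fold higher. These 3 are close copies and their probes may read each other. Serum amyloid Saa2 read 2.81 and 2.78 against -3.91 and -4.00 (6.75 ± 1.14, adjusted p = 0.00185). The falling members were Lcn2, Il1rn (-3.73), an interleukin-1 antagonist that leukocytes also make, and metallothionein Mt2, at 5.09 and 5.33 against 8.76 and 8.70 (-3.52 ± 0.94, adjusted p = 0.0404). Of 45 complement and coagulation genes 3 rose (6.67%, against 1.77% of all genes). They were complement C9 (5.20), the inhibitor C4bp (4.14) and the protease Cfd (at least 5.49-fold). C3, prothrombin F2 and fibrinogen Fgb were not called (0.68, 0.57 and 0.36).

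Iron genes gave 1 call in 32 (3.12% higher, against 1.77% of all genes). The hepcidin copy Hamp2 rose, at 3.22 and 3.42 against -4.29 and -4.59 (7.76 ± 1.46, adjusted p = 0.00437). Hamp itself, the hormone that blocks iron export, read 0.27 and -0.71 at PN21 against 5.10 and 5.23 at PN0 and missed the threshold (-5.38 ± 1.68, adjusted p = 0.0848). The 2 copies had differences of opposite sign, and the call of Hamp2 was lost after quantile normalization.

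Of 54 urea cycle and amino acid genes 3 rose (5.56%, against 1.77% of all genes) and none fell. A difference above 0 was found for 50, against 62.1% of all genes, and the median was 1.56 against 0.24. The risers were Tdo2, proline dehydrogenase (Prodh, 5.14 ± 0.80, adjusted p = 0.000971) and alanine aminotransferase (Gpt, at 7.15 and 7.14 against 3.98 and 0.92, 4.69 ± 1.22). PN0 array 1 was the higher PN0 array in Gpt, whose difference was 6.22 without PN0 array 1 and 3.16 without PN0 array 2. Of 30 genes that mark the pericentral or the periportal end of the liver lobule 3 rose, against 1.77% of all genes. The list also held 1 fall, against 3.00% of all genes. Its members were not counted by end of the lobule, so no shift towards one end is read from the calls. The 3 risers were pericentral genes. These were the glutamate transporter Slc1a2 (2.81 and 2.54 against -2.76 and -1.32, 4.71 ± 0.57, adjusted p = 0.000113), the Wnt pathway receptor Lgr5 (1.01 and 1.21 against -2.17 and -1.05, 2.72 ± 0.55) and the ammonia transporter Rhbg (2.55 ± 0.51). A further probe of Lgr5 was not above background on any of the 4 arrays. Glutamine synthetase (Glul), the best known pericentral gene, was already at 4.75 and 5.12 at PN0 and was not called (1.33). Apolipoprotein Apoa4 fell, at 0.34 and 0.78 against 4.39 and 4.50 (-3.89 ± 0.90, adjusted p = 0.0187).

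Of 40 genes of fatty acid and triglyceride synthesis 2 rose, against 1.77% of all genes, and 1 fell, against 3.00%. The median was 0.87, against 0.24 for all genes. Besides Thrsp the riser was the elongase Elovl3 (at least 4.77-fold), and the lipid droplet protein Cidec fell, at -0.59 and -1.03 against 2.73 and 1.67 (-3.01 ± 0.76). The synthase Fasn (2.52) and the desaturase Scd1 (3.07 and 4.20 against -1.26 and -0.73, 4.63 ± 1.63, adjusted p = 0.141) were not called. All 29 measured cholesterol genes had a difference above 0, as had 62.1% of all genes (median 1.31), and 1 was called, against 1.77% of all genes. It was Acat2 (3.40 ± 0.84, adjusted p = 0.0265), an enzyme of acetyl-CoA use. Of 41 genes of fatty acid oxidation 2 fell (4.88%, against 3.00% of all genes). They were the acyl-CoA thioesterases Acot1 (0.60 and 0.50 against 6.19 and 4.96, -5.03 ± 0.96) and Acot2 (-2.56), while Cpt1a and Acadm were not called. Of 38 genes of glucose and glycogen 2 rose (5.26%, against 1.77% of all genes), among them the glycogen regulator Ppp1r3b (3.53). Another 2 fell (5.26%, against 3.00%), the hexokinases Hk1 (-2.98 ± 0.49) and Hk2 (-1.67 ± 0.45). Hk1 has further probes that differed by -2.89 to 1.45, and its call was lost when the probes of a gene were averaged. No call was made among 55 genes of oxidative phosphorylation (median 0.57), 39 liver transcription factors (0.62) or 22 clock genes (0.50).

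Of 48 retinoid genes 6 rose (12.5%, against 1.77% of all genes) and none fell. The median of the list was 0.93, against 0.24 for all genes, and it was 0.53 after quantile normalization. The risers were mostly enzymes. The retinol dehydrogenase Rdh16 read 3.07 and 2.71 at PN21 and -2.66 and -3.80 at PN0 (6.12 ± 0.72, adjusted p = 8.72e-05), or 69.5-fold. The alcohol dehydrogenase Adh4 read 4.06 and 3.83 against -1.18 and -0.89 (4.98 ± 0.83, adjusted p = 0.00158). The retinal dehydrogenase Aldh1a1 read 5.77 and 5.18 against 1.09 and 1.42 (4.22 ± 1.00, adjusted p = 0.0221). The near copy Rdh16f2 (3.69), the carotenoid cleaving enzyme Bco2 (3.11) and the receptor Rxrg (1.14 and 0.88 against -3.85 and -2.38, 4.13 ± 0.94) rose too. Rdh16 and Adh4 were called in all 15 alternatives, and 2 to 5 of the 6 with 1 array left out.

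Apart from the receptor Rxrg, the genes of retinoid transport, storage and signalling named here were not called. Retinol binding protein Rbp4 read 9.92 and 9.57 against 9.20 and 9.18 (0.55 ± 0.84). Lrat, which makes retinyl ester for storage, read 0.40 and 0.12 against -2.27 and -0.74 and missed the threshold (1.77 ± 0.51, adjusted p = 0.0617). Cyp26a1, which breaks down retinoic acid and is a known target of it, was not above background at PN21 (-5.58 and -6.62) and on 1 of 2 arrays at PN0 (-4.43 and -5.61), with no call (-1.08). The receptor Rara was above background at PN21 only but was not called (1.08), and Rarb (0.38), Rarg (-0.31), Rxra (1.31) and Rxrb (0.10) were not called either. Other probes above background on all 4 arrays differed by 1.40 for Rarb and by -0.11 and 1.46 for Rarg. Rbp2 and Fabp5 had the lowest differences of the list, -3.30 and -3.12, neither called.

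Whether diet or genotype altered the birth-to-weaning difference was tested directly on the difference of the differences. Against the Cyp1b1-null line on the sufficient diet, 1 of 20532 genes passed (0.00487%), and 56 had an unadjusted p under 0.05. The latter count was 297 once the 2 poorly correlated arrays were dropped. It was 873 when the 8 Cyp1b1-null arrays were fitted alone. Since it depended so much on the fit, the near absence of calls does not show that the age difference was unchanged by diet. Both of those fits passed the same 1 gene. That gene was Ifi202b, an interferon-inducible gene. It read -0.82 and -1.29 at PN21 and -7.92 and -7.73 at PN0 on the deficient diet, with only the PN21 arrays above background, so it rose by at least 24.6-fold. On the sufficient diet all 4 arrays of this line were below background (-8.05 to -7.25). The signal at PN21 was not particular to the deficient Cyp1b1-null arrays. Ifi202b was above background at PN21 on 3 of 3 wild-type sufficient arrays (-2.40 to -2.08) and 2 of 3 wild-type deficient arrays. It was so on all 3 R-Cyp1b1-null arrays of each diet (-1.23 to -0.38 sufficient, -1.19 to -0.45 deficient). The difference of the differences as fitted, which uses readings below background and is no measured size, was 6.22 ± 0.80 (adjusted p = 0.0169), and it did not pass after quantile normalization (adjusted p = 1). With 1 of the 8 arrays left out the difference was 5.98 to 6.45, and it passed only without PN21 array 2 of the deficient diet (adjusted p = 0.0468). Igf2 fell by 7.93 here and by 4.06 on the sufficient diet, where the PN21 arrays read 3.59 and 3.72, but the difference of -3.87 did not pass (adjusted p = 1).

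Against the wild type on the deficient diet 5 genes passed (0.0244%), and 1062 had an unadjusted p under 0.05. Genotype cannot be told apart from slide and scan day here, since no wild-type array shared either with a Cyp1b1-null array. The lowest level above background was -5.77 to -5.38 on the Cyp1b1-null arrays of this diet and -3.88 to -3.14 on the wild-type ones. One of the 3 wild-type PN21 arrays, that of the single mouse, correlated poorly with the other PN21 arrays (median r = 0.753). Without it and the other such array of the series (median r = 0.465), 110 genes passed, 20 higher and 90 lower, the 5 among them, and without it alone 2 passed. The fitted differences here also use readings below background and are no measured sizes. The calls included the Y-linked genes Kdm5d (5.40 ± 0.54, adjusted p = 0.000523), Ddx3y (10.52 ± 1.46, adjusted p = 0.0214) and Eif2s3y (9.36 ± 1.43, adjusted p = 0.0347). The wild-type PN0 pools of this diet carried Y-linked RNA (Kdm5d at -1.59 and -1.52). In both Cyp1b1-null PN0 pools of this diet the 3 genes were below background. On the sufficient diet Cyp1b1-null PN0 array 2 read Ddx3y (-3.98) and Eif2s3y (-3.72) above background. The other two were Cdhr2, a protocadherin of epithelial brush borders, and an unnamed transcript given as ENSMUST00000131216. Cdhr2 read -7.40 and -7.51 at PN21 and -0.67 and -0.94 at PN0, at least 24.7-fold lower at PN21, while the wild type went from -3.63 to -2.80 at PN0 to -2.94 to -0.53 at PN21 (difference of differences -8.06 ± 1.23, adjusted p = 0.0347). A second Cdhr2 probe differed by -2.80 between the ages. The transcript ENSMUST00000131216, chosen after its values were seen, read 1.10 and 0.91 against -6.00 and -5.57 here and 0.86 to 1.46 against -2.06 to -0.32 in the wild type (4.39 ± 0.68, adjusted p = 0.0347). None of the 5 passed after quantile normalization, when 0 genes passed and 835 had an unadjusted p under 0.05.

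**Figure D4:**
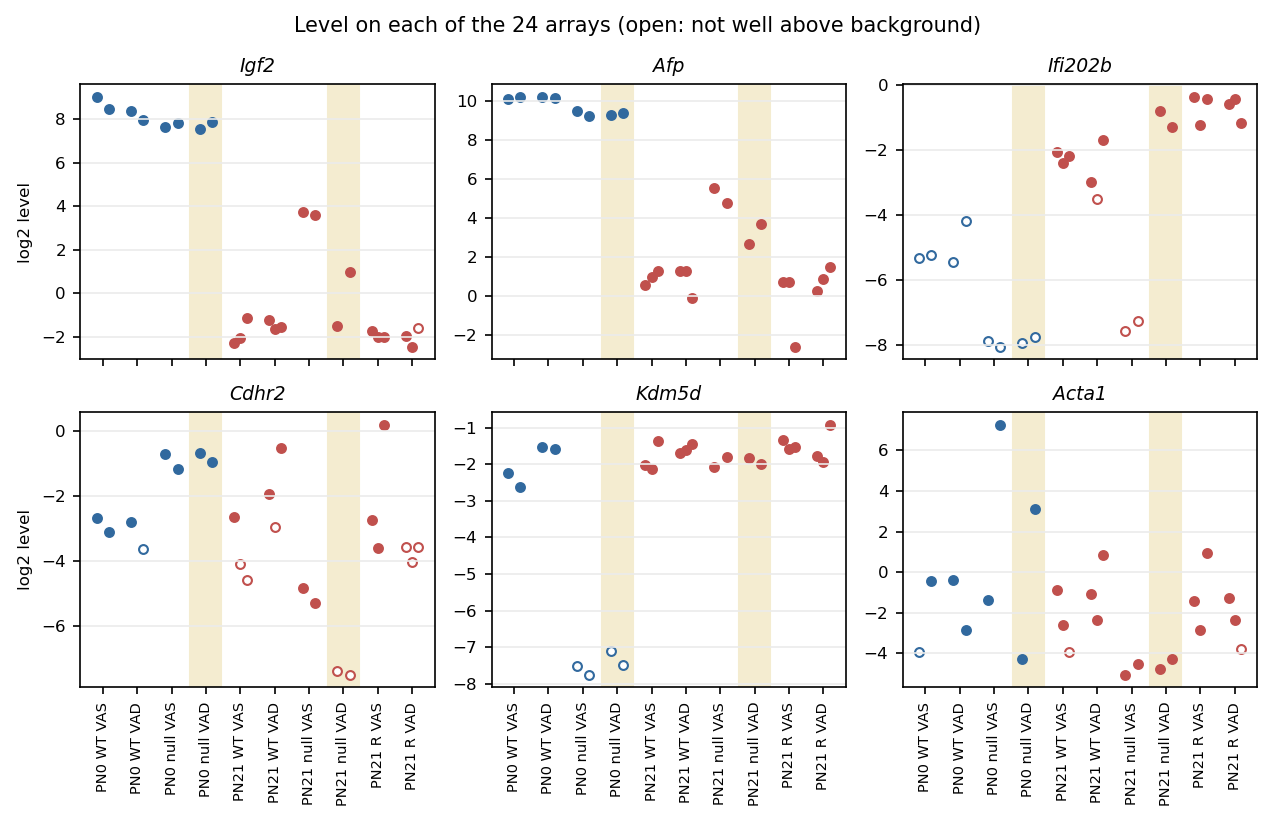
Log2 level of 6 genes on each of the 24 arrays, by group, with PN0 in blue and PN21 in red and open circles for readings not well above background. WT is wild type, null is Cyp1b1-null, R is R-Cyp1b1-null, VAS and VAD are the sufficient and deficient diets, and the shaded columns are the 4 arrays compared here. Igf2 and Afp are lower at PN21 than at PN0 in wild type and null, Ifi202b is below background on both PN21 null VAS arrays, and Kdm5d is below background in the PN0 null groups only.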

How the data were processed

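Liver RNA of 24 arrays was read as 1-colour intensity (Cy3); per the file headers the deposited intensities were background-subtracted by Agilent Feature Extraction 10.7.3.1, with probe positions on mm9. The deposited series table holds processed values of the same arrays and was used as an alternative (largest relative difference from the scanner signal 0.00497). Processed signals were taken as log2 relative to each array's 75th percentile, spots marked as outliers were dropped, and repeated spots of a probe were averaged. A probe was kept where all arrays of 1 or more groups read it well above background (30920 of 41174), with the brightest per gene, which gave 20532 genes. Names came from RefSeq accessions (27896 probes), symbols (5451) or synonyms (370), and otherwise from the file (7457). Limma 3.58.1 in R 4.3.3 fitted group means over 22 samples (12 residual and 3.99 prior degrees of freedom), the 3 arrays of 1 wild-type PN21 sufficient pool averaged, with Benjamini-Hochberg adjustment over all genes at 0.05. Errors are standard errors of the fit. The number of arrays limits the precision.

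Tested on simulated data with known changes for the age comparison over 20200 genes, the fit recovered 0% of changes of 1 log2 unit, 12% at 2, 68% at 4 and 92% at 6, with 8 calls among unchanged genes.

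The named genes are Cyp1b1, the 10 largest rises and falls above background on all 4 arrays, up to 6 each way by bound, the first 3 members of each list, up to 5 called members per list and direction, up to 6 per test of a difference, and the retinoid, IGF and P450 lists. The members and lists were chosen with earlier results of these data known. Promoters are from RefSeq (GRCm38.p6), without chromosome 18. Alternatives were background correction with quantile normalization, quantile normalization, no filter on dim probes, mean of probes, the series table, the 4 arrays alone, 2 arrays of low correlation left out, slide as a random block, a replicate block and each array left out. Dropping those 2 arrays together with quantile normalization, and the 8 Cyp1b1-null arrays alone, were chosen after seeing the data. Some list members are counted but not reported by name here.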

Additional observations from a re-analysis of the deposited data

Results flagged for a closer look

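Several genes had a birth-to-weaning difference that itself differed between groups by the test of that difference. The values are those of the fit. In each of these genes both arrays of 1 age on the deficient diet in the Cyp1b1-null line were below background, so the fitted values are no measured sizes, and the measured bounds are given beside them. Ifi202b differed between diets in the Cyp1b1-null line by 6.22 ± 0.80 (limma adjusted p = 0.0169). It was at least 24.6-fold higher at PN21 on the deficient diet and below background on all arrays of the line on the sufficient one. At PN21 it was also above background on all 3 wild-type sufficient arrays, on 2 of 3 wild-type deficient arrays and on all 3 R-Cyp1b1-null arrays of each diet. On the deficient diet, the Cyp1b1-null line differed from the wild type in Kdm5d by 5.40, in Ddx3y by 10.52 and in Eif2s3y by 9.36. These 3 are Y-linked and were at least 13.5-fold, 210-fold and 150-fold higher at PN21 in the Cyp1b1-null line. No sex is given for the PN0 pools, so a part of sex in these differences was not tested. Cdhr2 differed by -8.06, with at least a 24.7-fold fall in the Cyp1b1-null line and 2 of 5 wild-type arrays below background. ENSMUST00000131216 differed by 4.39, at least 102-fold higher at PN21 in the Cyp1b1-null line. In all these differences from the wild type, genotype cannot be told apart from slide and scan day. Single outlying samples within a group were not tested for gene by gene, since no group held more than 3 arrays.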

How the results depend on the processing

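No named gene changed sign in a called difference. The 978 calls (363 higher, 615 lower) became 588 (241, 347) with quantile normalization, 6072 (3768, 2304) from the 4 arrays alone, 4768 (2762, 2006) without the 2 arrays of low correlation, 3313 (1510, 1803) without those 2 arrays and with quantile normalization, and 7860 (4907, 2953) from the 8 Cyp1b1-null arrays. Leaving out 1 array gave 298 to 419 calls (96 to 164 higher, 202 to 272 lower). The cause of these shifts was not tested. The series table, no filter, mean of probes, slide block and normexp gave 974, 751, 1141, 689 and 819.

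The diet test (1 call) gave 0 with normexp (34 genes at unadjusted p under 0.05), with quantile normalization (28) and with quantile normalization without the 2 arrays (184), and 0 to 2 with 1 array left out. The genotype test (5 calls) gave 0 with normexp (649) and quantile normalization (835), 8 with mean of probes, 110 without the 2 arrays, 27 without them and with quantile normalization, 3 with slide as a random block and 1 to 3 with 1 array left out.

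Same-numbered PN21 and PN0 samples did not deviate together (r = 0.026 and 0.094 over 20532 genes in the 2 diets). With 2 arrays a group this cannot decide whether the numbers mark paired samples. With the replicate block 835 genes were called, and 1 and 2 in the 2 tests of differences.

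Of 124 named genes called, 55 were called in all 15 alternatives and 69 were lost in 1 or more. Genes near background, such as Bco2, Cfd, Orm3 and Cd8b1, shrank to 0.72, 0.63, 0.93 and 0.60 with normexp and quantile normalization.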
